A study of Mus musculus with 60 samples.

Results

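Kidneys of control mice were compared at 2 times of day that lie 12 h apart, the late night (ZT20) and midday (ZT8). ZT, or zeitgeber time, counts the hours from lights on, and lights went off at ZT12. The comparison took the 10 control samples that carry these labels, 5 mice at each time, out of 60 in the series. The controls were male C57BL/6J mice with loxP sites on both copies of Arntl (Bmal1) and without the transgenes that delete it. They were littermates of the cKOt mice, in which rtTA under the Pax8 promoter drives Cre, and so deletion, in the renal tubule. Both genotypes drank doxycycline (2 mg/ml) with sucrose (20 mg/ml) for 2 weeks from 8 weeks of age, ate standard chow at will, and were kept in 12 h of light and 12 h of darkness. The control groups at ZT8 and ZT20 thus share the floxed allele and the drug, and their labels differ by time of day alone. The sample labels call the tissue renal tubule, whereas the methods describe frozen pieces of whole kidney, taken 4 weeks after the doxycycline ended. From 6 mice sequenced per group the authors kept 5, by RNA quality and by closeness to their group in the sequencing data, and the sixth mouse was not used here.

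The circadian clock is a loop of transcription. The proteins of Arntl and of Clock or Npas2 pair, bind the E-box, and switch on the Per, Cry, Nr1d1, Nr1d2, Ciart, and Dbp genes. PER, CRY, and CIART proteins then repress the pair, REV-ERB proteins (Nr1d1, Nr1d2) repress and ROR proteins (such as that of Rora) activate Arntl and other genes through the ROR element, and the D-box is bound by the activators DBP, TEF, and HLF and by the repressor NFIL3. Mice are active and feed mainly in the dark, so that ZT20 falls in the active phase and ZT8 in the resting phase. In the kidney the clock and feeding together set a daily cycle of tubular transport and metabolism.

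Elements of this loop can be read in the promoter windows of some of the genes that differed between ZT20 and ZT8. The genes shown were chosen because their window holds a match, whereas those of Dbp, Npas2, Nr1d1, and Nr1d2, which also differed, hold none of the motifs searched. The stretches of 120 bases below come from the promoter windows of RefSeq (assembly GRCm38.p6, from 250 bases before to 50 bases after an annotated start). They are written 5′ to 3′ on the strand of the gene, and capitals mark the motif. The first set carries the ROR element (TAGGTCA or its reverse complement TGACCTA) and belongs to genes that were higher at ZT20. Arntl lies at chr7:113207441-113207560 on the plus strand, Nfil3 at chr13:52980990-52981109 on the minus strand, and Leo1 at chr9:75441404-75441523 on the plus strand.
Arntl: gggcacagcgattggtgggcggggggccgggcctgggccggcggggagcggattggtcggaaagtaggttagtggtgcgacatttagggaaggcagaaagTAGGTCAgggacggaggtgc
Nfil3: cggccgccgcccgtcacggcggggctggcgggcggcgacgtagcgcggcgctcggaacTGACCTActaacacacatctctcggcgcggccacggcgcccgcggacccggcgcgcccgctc
Leo1: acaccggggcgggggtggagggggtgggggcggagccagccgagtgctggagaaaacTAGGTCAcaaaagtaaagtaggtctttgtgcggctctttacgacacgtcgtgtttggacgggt
The second set carries the E-box (CACGTG). Ciart, with 3 copies, lies at chr3:95882246-95882365 on the minus strand, Per1 at chr11:69098726-69098845 on the plus strand, and Tef at chr15:81802489-81802608 on the plus strand. These 3 genes were lower at ZT20. Cry1, at chr10:85185052-85185171 on the minus strand, has the same motif and was higher at ZT20.
Ciart: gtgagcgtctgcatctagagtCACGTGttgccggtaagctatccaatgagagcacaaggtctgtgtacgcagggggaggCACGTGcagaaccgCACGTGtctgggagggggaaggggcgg
Per1: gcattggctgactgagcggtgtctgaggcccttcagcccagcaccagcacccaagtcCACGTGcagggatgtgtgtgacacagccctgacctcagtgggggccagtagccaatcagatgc
Tef: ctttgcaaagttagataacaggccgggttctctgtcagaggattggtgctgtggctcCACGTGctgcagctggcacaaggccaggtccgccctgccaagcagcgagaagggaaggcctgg
Cry1: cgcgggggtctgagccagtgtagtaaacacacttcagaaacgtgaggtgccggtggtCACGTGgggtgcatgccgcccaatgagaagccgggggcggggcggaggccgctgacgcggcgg
The last stretch is that of Per3, at chr4:151044784-151044903 on the minus strand, with 2 copies of the D-box TTATGTAA. Per3 was lower at ZT20.
Per3: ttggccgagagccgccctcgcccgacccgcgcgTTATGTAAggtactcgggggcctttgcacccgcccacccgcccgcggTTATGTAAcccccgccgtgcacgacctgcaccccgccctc

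RNA sequencing counted 17911086 to 20369950 reads on genes in each of the 10 mice, a similar depth to that of the whole series (17791420 to 20906706). Expression is given as CPM, the read count scaled by library size, after TMM normalization. At this depth 1 CPM rests on 17.3 to 19.6 reads, and low transcripts carry a larger counting error. No pair of replicates held identical counts. Replicates 1 and 2 at ZT20 stood apart from the rest. Correlations were taken over genes with a mean log2 CPM above 3. The mean correlation of these mice to the others of their group was 0.981 each. It was 0.985 to 0.988 for replicates 3 to 5 at ZT20 and 0.988 to 0.990 for the mice at ZT8. Counts of genes are therefore also given without replicates 1 and 2 at ZT20. Markers of the proximal tubule summed to 17976 to 21630.0 CPM at ZT20 and 18756 to 20313 CPM at ZT8. This segment makes up most of the kidney, so the sums cannot tell whole kidney from a tubule preparation. Markers of podocytes and endothelium, which a pure tubule preparation would lack, summed to 303 to 427 and 409 to 545 CPM. In whole tissue, fewer cells of a type cannot be told apart from less RNA per cell.

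Between ZT20 and ZT8, 2235 of 15546 genes differed (14.4%, edgeR quasi-likelihood test, Benjamini-Hochberg adjusted p under 0.05). Of these, 1269 were higher at ZT20 (8.16% of all tested) and 966 were lower (6.21%). Most differences were small, with a median fold of 1.24 among the called genes. A fold of at least 2 was reached by 69 higher genes (0.444%) and 71 lower genes (0.457%), and 40 of these 140 had a mean of at least 5 CPM. The 5 values at ZT20 lay wholly above those at ZT8 for 706 genes (4.54%) and wholly below them for 477 (3.07%). The median log2 difference of all tested genes was 0.0089. When each of the 10 mice was left out in turn, 1162 of the 2235 genes (52.0%) kept their call in all 10 fits, and 1424 genes were called without replicates 1 and 2 at ZT20. The sample titles name no batch, and the main text of the paper describes batches only for the proteomics. Library batch is the term used here for a numbered set of samples, and the titles do not say what a set shares. Library batches 2 and 3 each held 1 control mouse of each time, and 94.0% and 90.2% of the 2235 genes had the same direction within them. These mice also took part in the calls, so that the shares are a description only, and the other batches held control mice of only 1 of these times. The fits without RUVs factors and with the library batch in their place called 1433 and 1258 genes, and a fit of the 10 mice alone called 863.

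The other 4 time points of the control mice place this pair within the day. Of the 1269 higher genes, 715 had the highest of their 6 group means at ZT20, 270 at ZT0, and 238 at ZT16, and 596 had the lowest at ZT8. Of the 966 lower genes, 462 had their highest mean at ZT8, 261 at ZT12, and 229 at ZT4, and 476 had their lowest at ZT20. These counts describe the same mice that made the call. The other pairs of control groups 12 h apart gave 3040 called genes between ZT12 and ZT0 (19.6%) and 2005 between ZT16 and ZT4 (12.9%), with other mice in the same fit.

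Among genes with a mean of at least 5 CPM, the largest rise (Arntl) and the largest fall (Dbp) were those of clock genes. Among the activators, Arntl, Npas2, and Clock were higher at ZT20. Arntl (chr7:113207465-113314126, GRCm38), which encodes the central activator BMAL1, was measured at 46.4, 43.7, 50.8, 51.6 and 43.8 CPM in the 5 mice at ZT20 and at 4.17, 2.59, 2.12, 2.36 and 2.40 CPM at ZT8. The groups did not overlap, and the highest mouse at ZT8, replicate 1, was still far below every mouse at ZT20. Arntl was 16.7-fold higher at ZT20 (log2 difference 4.06 ± 0.25, SE, n = 5 and 5, adjusted p = 1.4e-18, edgeR). Npas2, a partner that can stand in for CLOCK, was at 12.9, 11.2, 22.5, 18.6 and 12.5 CPM at ZT20 and at 1.39, 0.811, 1.43, 0.734 and 0.628 CPM at ZT8. The lowest of the night mice was several times the highest of the midday mice, and the difference was 3.94 ± 0.31 (adjusted p = 2.84e-14, edgeR). Clock, the other partner, moved far less, from 79.1 ± 12.9 CPM (SD) at ZT8 to 139.7 ± 6.61 CPM at ZT20, again without overlap (0.76 ± 0.095, adjusted p = 3.76e-08, edgeR). Rora, a receptor that binds the ROR element, was at 97.1 ± 7.01 and 93.1 ± 8.81 CPM and did not pass the test, with overlapping mice (adjusted p = 0.98, edgeR), and the sign of its small difference varied with the method.

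**Figure D1:**
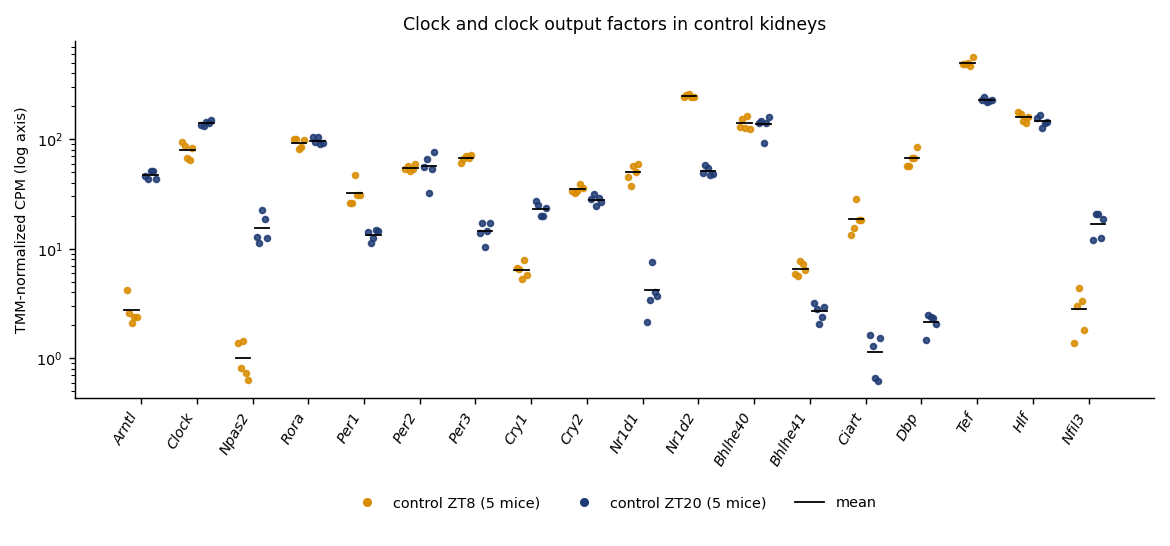
TMM-normalized CPM (log axis) of 18 clock and clock output genes in each of the 5 control mice at ZT8 (orange) and at ZT20 (blue), with black bars at the means. Arntl, Npas2, Cry1, and Nfil3 lie clearly higher at ZT20, Dbp, Ciart, Nr1d1, Nr1d2, and Per3 clearly lower, and Rora, Per2, Bhlhe40, and Hlf overlap.

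Of the 10 clock repressors, 7 were lower and 1 was higher at ZT20 (70% and 10%, against 6.21% and 8.16% of all genes). All 8 calls held when any 1 of the 10 mice was left out. Ciart (CHRONO), a repressor of the BMAL1 complex, was at 1.64, 1.29, 0.664, 0.613 and 1.52 CPM at ZT20 and at 13.2, 15.5, 28.6, 18.4 and 18.4 CPM at ZT8. No mouse at ZT20 came near the midday range, and Ciart was 15.5-fold lower (-3.96 ± 0.32, adjusted p = 3.4e-14, edgeR). Nr1d1, which encodes the repressor REV-ERBα, was at 2.15, 3.43, 7.51, 4.01 and 3.70 CPM at ZT20 and at 45.4, 37.8, 57.2, 50.6 and 59.5 CPM at ZT8. Replicate 3 at ZT20 was the highest of the night mice and still far below midday, and the fall was 11.1-fold (-3.47 ± 0.24, adjusted p = 2.66e-16, edgeR). Nr1d2 (REV-ERBβ) was at 51.2 ± 4.73 CPM against 248 ± 6.72 CPM (-2.26 ± 0.14), and Bhlhe41 (DEC2) at 2.68 ± 0.450 against 6.57 ± 0.890 CPM (-1.18 ± 0.23). Its paralogue Bhlhe40 (DEC1) was at 136 ± 25.8 and 139 ± 17.8 CPM with overlapping mice (adjusted p = 0.921, edgeR).

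The Period and cryptochrome genes were not at one phase. Per3 was at 13.8, 17.3, 10.3, 14.6 and 17.1 CPM at ZT20 and at 60.8, 66.1, 70.4, 67.1 and 72.2 CPM at ZT8, a fall of 4.52-fold (-2.18 ± 0.16, adjusted p = 3.91e-16, edgeR). Per1 was at 14.2, 11.2, 12.6, 14.8 and 14.4 CPM at ZT20 and at 25.9, 25.9, 47.2, 30.6 and 30.9 CPM at ZT8. The groups were apart, replicate 3 at ZT8 was far above its group, and the fall was 2.24-fold (-1.17 ± 0.22, adjusted p = 0.000179, edgeR). Per2 was at 55.7, 66.0, 32.5, 53.8 and 77.2 CPM at ZT20 and at 53.4, 56.6, 51.2, 53.5 and 59.8 CPM at ZT8, with full overlap (adjusted p = 0.946, edgeR). Its group means were highest at ZT12 (99.4 ± 15.3 CPM) and ZT16 (101 ± 20.6 CPM), so that ZT8 and ZT20 fell on the rising and the falling side of its cycle. Cry1 was the repressor that was higher at night, at 27.4, 25.0, 19.9, 19.8 and 23.4 CPM at ZT20 and at 6.67, 6.59, 5.25, 7.87 and 5.77 CPM at ZT8 (3.57-fold, 1.84 ± 0.12, adjusted p = 3.77e-18, edgeR). Cry2 fell slightly, from 34.9 ± 2.51 to 28.1 ± 2.64 CPM (-0.31 ± 0.066, adjusted p = 0.000707, edgeR).

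Among the factors that bind the D-box, Dbp (chr7:45705088-45710203) had the largest fall of all genes with a mean of at least 5 CPM. It was at 1.47, 2.46, 2.40, 2.34 and 2.07 CPM at ZT20 and at 57.1, 56.7, 66.8, 68.0 and 85.4 CPM at ZT8, a 28.5-fold difference (-4.83 ± 0.23, adjusted p = 2.08e-23, edgeR). All night mice were close together, and replicate 5 at ZT8 was the highest. Tef, a second activator of the family, went from 500.2 ± 37.2 to 228 ± 8.90 CPM (-1.15 ± 0.092), while the third, Hlf, was at 158 ± 14.6 and 146 ± 14.9 CPM and did not pass the test (adjusted p = 0.13, edgeR). Nfil3, which represses through the same element, was in the opposite phase, at 12.1, 20.7, 20.8, 12.5 and 18.7 CPM at ZT20 and at 1.39, 3.03, 4.34, 3.36 and 1.83 CPM at ZT8 (5.45-fold, 2.45 ± 0.36, adjusted p = 2.02e-06, edgeR).

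The motif count put these promoters beside all others. Of the 69 genes at least 2-fold higher, 40 had a window in the RefSeq table, and 5 of these 40 (12.5%) held the ROR element, against 2.97% of the 27025 genes in the table and 2.37% of the tested genes that have a window. The E-box was in 5 of the 40 (12.5%) and in 8 of 52 of the genes at least 2-fold lower (15.4%), against 8.09% of all and 11.4% of the tested genes. The D-box (TTATGTAA or TTACGTAA) was in 1 of 40 and 2 of 52, against 1.23% of all and 0.92% of the tested genes. The heat shock element (GAANNTTC) was in 1 of 40 and 4 of 52, against 9.04% of all and 7.16% of the tested genes. The cyclic AMP element (TGACGTCA) was in 2 of 40 and 0 of 52, against 2.03% of all and 3.35% of the tested genes. Both strands were searched, none of the 5 patterns contains another, and a match is a match of letters and not a measurement of binding.

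**Figure D2:**
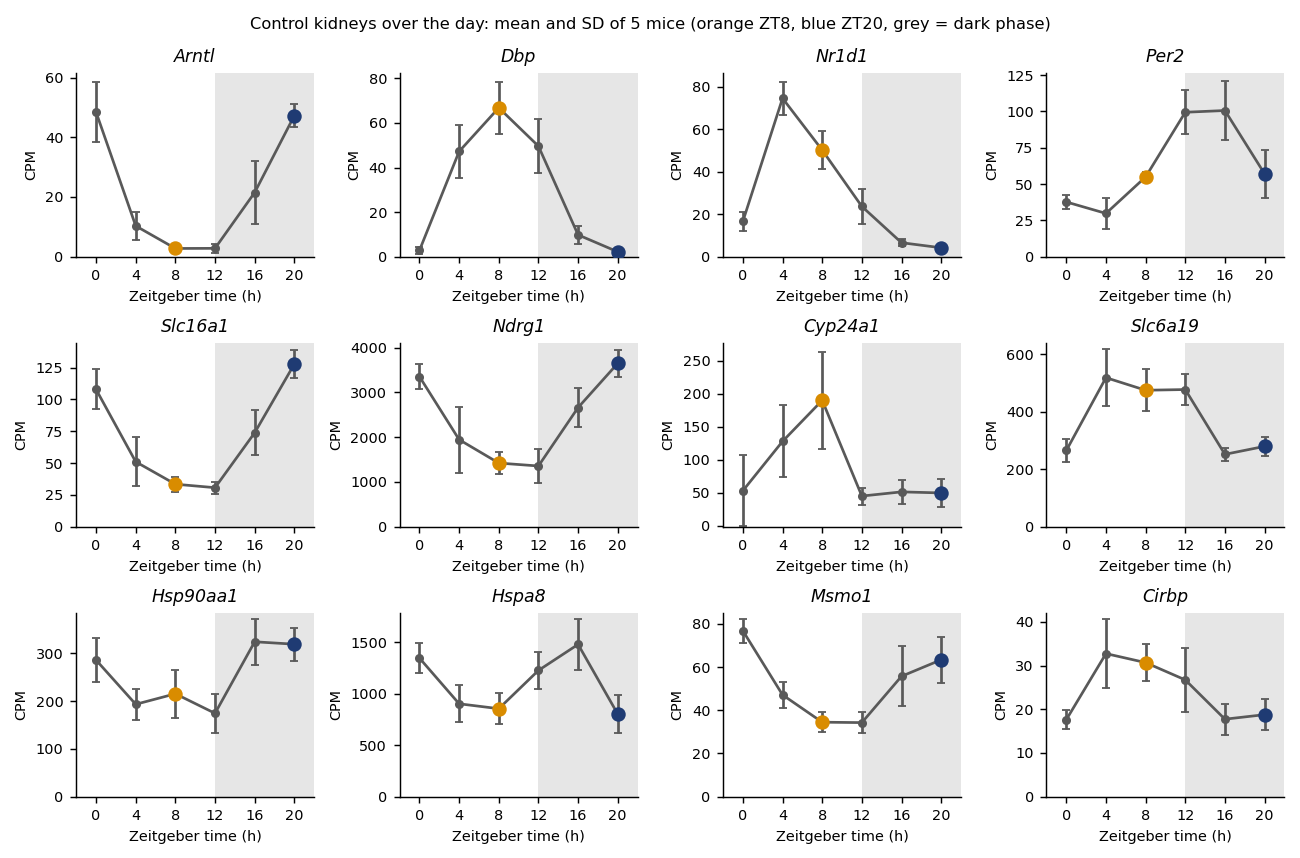
Mean CPM and SD of 5 control mice at each of the 6 time points for 12 genes, with ZT8 in orange, ZT20 in blue, and the dark phase in grey. Arntl, Slc16a1, and Ndrg1 are high at ZT20 and ZT0, Dbp peaks at ZT8, Cyp24a1 has its highest means at ZT4 and ZT8, and Per2 and Hspa8 have similar values at ZT8 and ZT20 although they vary over the day.

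Outside the clock, the largest rises included a transporter, a nuclear receptor, and genes of signalling and the cell cycle. Slc16a1 (chr3:104638668-104658462), which encodes the monocarboxylate transporter MCT1, was at 137, 131, 133, 109 and 129 CPM at ZT20 and at 43.0, 34.3, 32.0, 27.4 and 30.1 CPM at ZT8. The 2 groups were far apart (3.73-fold, 1.90 ± 0.16, adjusted p = 3.17e-13, edgeR). Its promoter window holds 1 E-box. Ndrg1 (chr15:66929318-66969640), a gene of stress response and differentiation, was at 3592, 3873, 4042, 3431 and 3317 CPM at ZT20 and at 1361, 1602, 1645, 1468 and 1028 CPM at ZT8 (2.51-fold, 1.33 ± 0.15, adjusted p = 8.94e-10, edgeR). Ppard, a nuclear receptor for fatty acids, was at 23.1, 28.0, 53.5, 50.4 and 30.7 CPM at ZT20 and at 9.91, 6.81, 9.54, 11.3 and 10.8 CPM at ZT8. Replicates 3 and 4 at ZT20 were the highest, and all night mice were above all midday mice (1.99 ± 0.22, adjusted p = 1.06e-09, edgeR).

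Cdkn1a, which encodes the cell cycle inhibitor p21, rose from 3.08 ± 0.921 to 10.9 ± 4.09 CPM (1.92 ± 0.25, adjusted p = 1.03e-07, edgeR). Zbtb16, a transcription factor induced by glucocorticoids, rose from 3.52 ± 0.527 to 10.6 ± 4.22 CPM (1.66 ± 0.39, adjusted p = 0.00193, edgeR), with replicate 3 at ZT20 the highest at 17.7 CPM. Ypel2, Lonrf3, and Dtx4 rose 3.50-fold, 3.14-fold, and 2.87-fold. Leo1, a subunit of the PAF1 complex of transcription elongation whose window holds the ROR element shown above, was at 15.9, 16.9, 14.9, 17.0 and 16.2 CPM at ZT20 and at 7.19, 6.32, 4.98, 6.30 and 7.88 CPM at ZT8 (1.29 ± 0.084, adjusted p = 1.2e-17, edgeR). All night mice were above all midday mice. Itga6, an integrin subunit that binds laminin, rose from 89.2 ± 9.57 to 212 ± 19.5 CPM (1.23 ± 0.10), and Nt5e, the ectonucleotidase that forms adenosine, from 137 ± 27.9 to 332 ± 41.9 CPM (1.22 ± 0.13).

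Outside the clock, Cyp24a1 had the largest fall among called genes with a mean of at least 5 CPM (chr2:170482708-170497145). It encodes the enzyme that inactivates vitamin D hormone. It was measured at 63.6, 35.5, 71.4, 56.3 and 21.6 CPM at ZT20 and at 188, 297, 220.4, 122 and 122 CPM at ZT8. The groups did not overlap but both were wide, and the difference was 3.34-fold (-1.74 ± 0.47, adjusted p = 0.00838, edgeR). Its level was already at 44.9 ± 12.9 CPM at ZT12. Upp2, a uridine phosphorylase, fell from 33.9 ± 6.62 to 15.4 ± 1.51 CPM (-1.19 ± 0.13, adjusted p = 3.58e-10, edgeR). Cit, a kinase of cell division, fell from 18.7 ± 2.77 to 8.49 ± 1.26 CPM (-1.19 ± 0.20), and Cpeb3, a regulator of translation, from 122 ± 2.93 to 58.2 ± 10.4 CPM (-1.11 ± 0.13). Mcm10, a DNA replication factor, fell from 9.92 ± 1.74 to 5.53 ± 1.14 CPM (-0.91 ± 0.14). Nat8f4, Rnf24, and Gprin3 fell 2.01-fold, 1.97-fold, and 2.10-fold. Nat8f4 has close paralogues that can share reads, and Gprin3 lost its call without replicates 1 and 2 at ZT20 (adjusted p = 0.0727, edgeR).

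**Figure D3:**
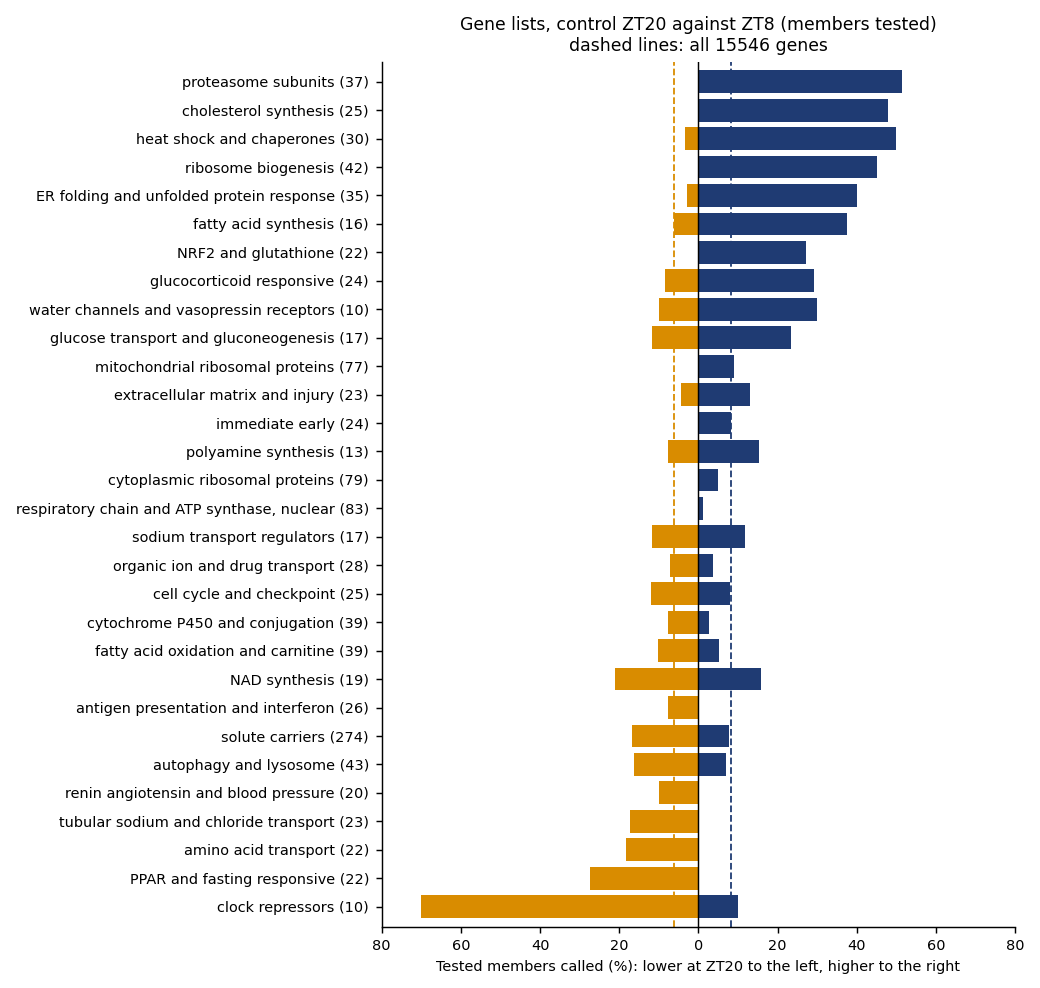
Share of the tested members of each gene list of at least 6 tested genes that were called higher at ZT20 (blue, right) or lower (orange, left), with the number of tested members in brackets and dashed lines at the shares of all tested genes. Sterol synthesis, chaperone, ribosome biogenesis, endoplasmic reticulum, and proteasome lists lie to the right, and fasting, amino acid transport, and sodium transport lists to the left.

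Genes of sterol and fatty acid synthesis that passed the test were mostly higher in the active phase. Of 25 cholesterol synthesis genes, 12 were higher at ZT20 (48%, against 8.16% of all genes) and none lower by edgeR, DESeq2, or limma. The median log2 difference was 0.26, against 0.0089 for all genes. The count was 9 without replicates 1 and 2 at ZT20 and 5 with the library batch in place of RUVs factors. Over all genes these 2 fits called 754 and 755 higher. With the 10 mice fitted alone, 6 were higher, and the chaperone, endoplasmic reticulum, ribosome biogenesis, and proteasome lists described next held 6, 8, 4, and 4. That fit called 466 of all genes higher and 397 lower. Msmo1, a demethylase of sterol synthesis, was at 80.0, 61.9, 65.0, 59.6 and 50.4 CPM at ZT20 and at 35.7, 41.3, 30.6, 30.3 and 34.4 CPM at ZT8. All night mice were above all midday mice (1.78-fold, 0.83 ± 0.13, adjusted p = 1.16e-05, edgeR). Insig1, a brake on sterol synthesis, and Pmvk, a kinase of the mevalonate pathway, differed by 0.67 ± 0.16 and 0.52 ± 0.095.

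Of 16 fatty acid synthesis genes, 6 were higher and 1 lower (37.5% and 6.25%, against 8.16% and 6.21% of all genes, median 0.17). But 2 were higher without RUVs factors, and 3 with the library batch or without replicate 2 or 5 at ZT8. Scd2, a desaturase, was at 156, 136, 157, 167 and 153 CPM at ZT20 and at 96.9, 89.6, 114, 98.7 and 102 CPM at ZT8, without overlap (0.65 ± 0.094, adjusted p = 1.09e-06, edgeR). Acly, which makes acetyl-CoA from citrate, differed by 0.37 ± 0.062, and Srebf1, the transcription factor of lipid synthesis, by 0.63 ± 0.13. The call of Srebf1 was lost without RUVs factors (adjusted p = 0.127) and with the library batch in their place (0.283, edgeR). The gene that fell was Acss2, which activates acetate, from 374 ± 24.6 to 314 ± 8.76 CPM (-0.27 ± 0.047, adjusted p = 4.98e-05, edgeR).

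Several genes that respond to fasting were higher at midday. Of 22 PPAR and fasting responsive genes, 6 were lower at ZT20 (27.3%, against 6.21% of all genes) and none higher by edgeR, DESeq2, or limma. The median was -0.067, and 1 was higher at an unadjusted p under 0.05. The lower count was 5 without replicates 1 and 2 at ZT20 and 4 without RUVs factors. It was 3 with the library batch or without replicate 2 or 5 at ZT20 or replicate 3 at ZT8. Igfbp1, a binding protein of insulin-like growth factors that insulin represses, was at 1.13, 1.23, 1.58, 1.12 and 0.762 CPM at ZT20 and at 3.36, 3.84, 5.09, 7.45 and 4.11 CPM at ZT8. Its level was low, but the groups were apart (3.78-fold, -1.92 ± 0.35, adjusted p = 9.8e-05, edgeR). Txnip, an inhibitor of glucose uptake, fell from 384 ± 72.4 to 257 ± 30.1 CPM (-0.46 ± 0.11, adjusted p = 0.00266, edgeR). Irs2, an adaptor of the insulin receptor, was at 11.9, 9.91, 34.4, 9.93 and 10.8 CPM at ZT20 and at 12.9, 29.7, 86.0, 33.9 and 31.2 CPM at ZT8. Replicate 3 was far above the rest in both groups, and the call (-1.35 ± 0.48, adjusted p = 0.0472, edgeR) was lost without any of 6 of the 10 mice (replicates 1, 2, 4, and 5 at ZT20 and 3 and 4 at ZT8), with log2 differences from -2.01 to -0.82 and adjusted p up to 0.287. It was also lost without RUVs factors (adjusted p = 0.0586), with the library batch in their place (0.296), and without replicates 1 and 2 at ZT20 (0.196, edgeR).

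Fatty acid oxidation and carnitine genes split. Of 39 tested, 2 rose and 4 fell, shares of 5.13% and 10.3% against 8.16% and 6.21% of all genes, and 2 fell with the library batch. Of the 39 differences, 28 were above 0 (median 0.040). Acsl1, which activates long chain fatty acids, was at 312, 307, 418, 387 and 304 CPM at ZT20 and at 215, 218, 222, 210.1 and 217 CPM at ZT8, without overlap (0.71 ± 0.094, adjusted p = 1.66e-07, edgeR). Acot1, a thioesterase that does the reverse, rose as well (0.88 ± 0.20), though it can share reads with its paralogue Acot2. Cpt1a, the gate of the carnitine shuttle into mitochondria, was at 529, 528, 524, 546 and 545 CPM at ZT20 and at 656, 626, 733, 688 and 742 CPM at ZT8. The night values were tightly grouped and all below midday (-0.37 ± 0.07, adjusted p = 0.00017, edgeR). Fabp3, a fatty acid binding protein, fell by a similar amount (-0.42 ± 0.079), and Slc27a2, a fatty acid transporter of the proximal tubule, from 4507 ± 205 to 3924 ± 125 CPM (-0.24 ± 0.059). The call of Slc27a2 was lost with the library batch in place of RUVs factors (adjusted p = 0.0536, edgeR).

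Many protein folding genes were higher at night. Of 30 heat shock and chaperone genes, 15 were higher at ZT20 and 1 lower (50% and 3.33%, against 8.16% and 6.21% of all genes, median 0.26). The higher count was 7 without replicates 1 and 2 at ZT20 and 9 with the library batch or without replicate 3 at ZT8. Hsp90aa1, the inducible HSP90, was at 313, 369, 312, 273 and 331 CPM at ZT20 and at 269, 261, 159, 217 and 171 CPM at ZT8. The lowest night mouse was just above the highest midday mouse (1.43-fold, 0.51 ± 0.12, adjusted p = 0.00228, edgeR). Chordc1, a cochaperone of HSP90 whose window holds 2 heat shock elements, differed by 0.43 ± 0.098, and Hspa4l, of the HSP110 family, by 0.38 ± 0.097. Hspa8, the constitutive HSP70, was at 803 ± 187 and 855 ± 151 CPM and did not pass the test (adjusted p = 0.498, edgeR), although its means were 1481 ± 248 CPM at ZT16 and 1347 ± 149 CPM at ZT0. Of 4 cold-inducible RNA binding genes 1 was higher and 1 lower (25% each, against 8.16% and 6.21% of all genes). The higher call was lost with the library batch. Cirbp, the lower one, was at 14.7, 18.5, 23.2, 21.4 and 15.9 CPM at ZT20 and at 24.5, 29.6, 34.0, 30.3 and 35.0 CPM at ZT8 (1.53-fold lower, -0.61 ± 0.16, adjusted p = 0.00538, edgeR). Rbm3, the other classical cold-inducible gene, was at 51.8 ± 10.3 and 42.3 ± 1.74 CPM and did not pass the test (adjusted p = 0.119, edgeR).

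In the endoplasmic reticulum list, 14 of 35 genes were higher and 1 lower (40% and 2.86%, against 8.16% and 6.21% of all genes, median 0.18). The higher count was 7 without replicates 1 and 2 at ZT20 and 9 with the library batch or without replicate 3 at ZT8. Sdf2l1, a component of the folding machinery, was at 11.5, 12.2, 10.9, 8.75 and 10.2 CPM at ZT20 and at 5.56, 7.67, 2.91, 6.66 and 4.74 CPM at ZT8, apart in all mice (1.92-fold, 0.94 ± 0.22, adjusted p = 0.00218, edgeR). Hsp90b1 (GRP94), Pdia6, and Calr (calreticulin), abundant folding proteins of this compartment, differed by 0.46 ± 0.11, 0.42 ± 0.079, and 0.41 ± 0.10. Hspa5 (BiP), the main chaperone, rose from 518 ± 131 to 763 ± 126 CPM (0.50 ± 0.15, adjusted p = 0.0138), a call that was lost without replicate 3 at ZT8 (0.37, adjusted p = 0.072) and without replicates 1 and 2 at ZT20 (0.107, edgeR). Herpud1, which serves the degradation of misfolded proteins, fell from 301 ± 14.8 to 216 ± 15.5 CPM (-0.47 ± 0.089, adjusted p = 0.000137, edgeR).

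Many ribosome biogenesis genes rose, by small amounts. Of 42 tested, 19 were higher (45.2%, against 8.16% of all genes) and none lower by edgeR, DESeq2, or limma (median 0.20). The higher count was 9 without replicates 1 and 2 at ZT20 and 6 with the library batch. Tsr1, Heatr1, and Bysl, which act in ribosomal RNA processing and subunit assembly, differed by 0.37 ± 0.084, 0.33 ± 0.067, and 0.41 ± 0.077. The call of Bysl was lost with the library batch in place of RUVs factors (adjusted p = 0.197, edgeR). The ribosomal protein genes themselves gave 4 higher of 79, with 73 of 79 differences above 0 (median 0.15), a share of 5.06% that is below that of all genes. Their count was 1 without RUVs factors and 6 with the library batch, and 12 and 8 without replicate 1 or 4 at ZT20. Myc, a regulator of ribosome production, was at 5.99, 5.09, 9.81, 6.47 and 5.77 CPM at ZT20 and at 1.85, 3.89, 4.77, 2.57 and 2.11 CPM at ZT8 (2.40-fold, 1.26 ± 0.32, adjusted p = 0.00481, edgeR). It was 1 of 2 called higher among 24 immediate early genes (8.33%, against 8.16% of all genes). The other was Ier5 (0.68 ± 0.15), while Fos was at 10.2 ± 2.92 and 8.33 ± 2.68 CPM (adjusted p = 0.46, edgeR). In the polyamine list 2 of 13 were higher and 1 lower (15.4% and 7.69%, against 8.16% and 6.21% of all genes). With the library batch the counts were 1 and 0. Amd1, an enzyme of the pathway, differed by 0.41 ± 0.10.

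Among proteasome subunits, a family chosen after the results were known, 19 of 37 were higher (51.4%, against 8.16% of all genes). None was lower by edgeR, DESeq2, or limma (median 0.16). The higher count was 7 without replicates 1 and 2 at ZT20, 12 without RUVs factors, and 11 and 12 without replicate 2 at ZT20 or replicate 2 at ZT8. Psmd11, a subunit of the regulatory lid, stood out with 0.54 ± 0.047 (adjusted p = 2.83e-13, edgeR), and the next, Psmd14 and Psmd6, differed by 0.24 ± 0.051 and 0.23 ± 0.044. Nuclear genes of the respiratory chain and ATP synthase gave 1 higher of 83 (1.2%, against 8.16% of all genes). Still, 76 of the 83 differences were above 0 (median 0.11). The count was 6 higher with the library batch and 8 without replicate 1 at ZT20. Of 7 mitochondrially encoded genes none was called by edgeR, DESeq2, or limma, nor was any below an unadjusted p of 0.05. Of 22 NRF2 and glutathione genes, 6 were higher (27.3%, against 8.16% of all genes, median 0.057), with 2 higher without replicates 1 and 2 at ZT20. Txnrd1 and Srxn1, which keep thioredoxin and peroxiredoxin reduced, rose without overlap (0.37 ± 0.06 and 0.38 ± 0.069, adjusted p = 9.5e-06 and 9.36e-05, edgeR).

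**Figure D4:**
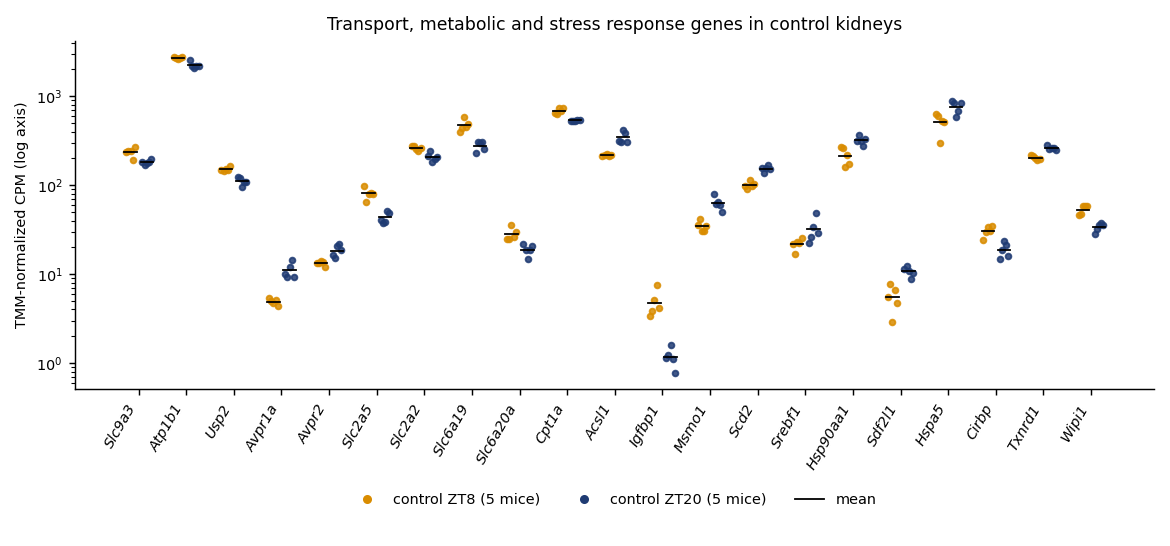
TMM-normalized CPM (log axis) of 21 transport, metabolic, and stress response genes in each of the 5 control mice at ZT8 (orange) and ZT20 (blue), with black bars at the means. Slc2a5, Slc6a19, Cpt1a, Igfbp1, Cirbp, and Wipi1 lie lower at ZT20, and Avpr1a, Acsl1, Msmo1, Scd2, and Sdf2l1 lie higher.

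Solute carriers that were called lay mostly lower at night. The family was taken by gene symbol and was not limited to transporters of the tubule. Of 274 solute carriers tested, a family chosen after the results were known, 21 were higher and 46 lower, shares of 7.66% and 16.8% against 8.16% and 6.21% of all genes (median -0.038). Without replicates 1 and 2 at ZT20 they were 19 and 32, without RUVs factors 14 and 29, and with the library batch 12 and 24. In the sodium and chloride list 4 of 23 were lower (17.4%) and none higher by edgeR, DESeq2, or limma (median -0.078). The count was 2 lower without replicates 1 and 2 at ZT20, without RUVs factors, or with the library batch. Slc9a3, which encodes the proximal sodium-proton exchanger NHE3, was at 184, 169, 176, 184 and 195 CPM at ZT20 and at 233, 245, 243, 194 and 269 CPM at ZT8. Replicate 5 at ZT20 was just above replicate 4 at ZT8, and no other values overlapped (1.32-fold lower, -0.40 ± 0.074, adjusted p = 0.000108, edgeR). Atp1b1, the beta subunit of the sodium pump, was at 2589.6, 2176, 2083, 2163 and 2218 CPM at ZT20 and at 2758, 2672, 2634, 2727 and 2795 CPM at ZT8, with replicate 1 the highest at ZT20 (-0.30 ± 0.049, adjusted p = 1.47e-05, edgeR). Slc12a3, the thiazide-sensitive cotransporter of the distal convoluted tubule, was at 1006 ± 96.9 and 1115 ± 90.7 CPM and did not pass the test (adjusted p = 0.136, edgeR).

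Among 17 regulators of sodium transport, 2 were higher and 2 lower (11.8% each, against 8.16% and 6.21% of all genes). The counts were 0 and 2 with the library batch, and 5 were lower by DESeq2. Usp2, a ubiquitin protease driven by the clock, fell from 151 ± 8.13 to 111 ± 10.6 CPM without overlap (-0.46 ± 0.097, adjusted p = 0.00059, edgeR). Nr3c2, the mineralocorticoid receptor, fell (-0.37 ± 0.095), and Sgk1, a kinase induced by aldosterone and glucocorticoids, rose from 81.2 ± 14.8 to 122 ± 19.0 CPM (0.75 ± 0.20). Both calls were lost without replicates 1 and 2 at ZT20 (adjusted p = 0.0511 and 0.0643, edgeR), and that of Sgk1 also without RUVs factors (0.0857) and with the library batch in their place (0.226). Of 10 aquaporins and vasopressin receptors, 3 were higher and 1 lower (30% and 10%, against 8.16% and 6.21% of all genes). Without replicates 1 and 2 at ZT20, 4 were higher and none lower, and 5 were higher without replicate 1 at ZT8. The vasopressin receptor Avpr1a was at 10.1, 9.37, 12.1, 14.4 and 9.20 CPM at ZT20 and at 5.45, 4.92, 4.72, 5.09 and 4.34 CPM at ZT8 (2.29-fold, 1.19 ± 0.14, adjusted p = 1.13e-08, edgeR). Avpr2, the receptor that drives water reabsorption in the collecting duct, rose from 13.2 ± 0.740 to 18.4 ± 2.75 CPM, again with no overlap (0.55 ± 0.09, adjusted p = 1.33e-05, edgeR). Aqp2, the water channel under its control, was at 57.9 ± 17.2 and 48.3 ± 9.88 CPM and narrowly missed the threshold (adjusted p = 0.0527, edgeR).

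Several sugar and amino acid carriers of the proximal tubule were lower at night. Slc2a5, the fructose transporter GLUT5, was at 40.8, 37.3, 38.8, 50.8 and 49.1 CPM at ZT20 and at 97.6, 65.1, 80.4, 82.5 and 80.1 CPM at ZT8, without overlap (1.85-fold lower, -0.89 ± 0.16, adjusted p = 8.04e-05, edgeR). Slc2a2, the basolateral glucose transporter GLUT2, fell from 262 ± 14.2 to 207 ± 22.8 CPM (-0.39 ± 0.083). The list of glucose transport and gluconeogenesis held 4 higher (G6pc, Glud1, Slc16a1, and the glucose transporter gene Slc2a1) and 2 lower of 17. These shares were 23.5% and 11.8%, against 8.16% and 6.21% of all genes. The list held 2 of each without replicates 1 and 2 at ZT20 or with the library batch. G6pc, the last enzyme of gluconeogenesis, rose from 535 ± 71.0 to 753 ± 114 CPM (0.48 ± 0.16, adjusted p = 0.0333), a call that was lost without any of 6 mice (replicates 2, 4, and 5 at ZT20 and 2, 3, and 5 at ZT8, log2 differences 0.41 to 0.56, adjusted p up to 0.0992), with the library batch in place of RUVs factors (0.0739), and without replicates 1 and 2 at ZT20 together (0.052, edgeR). Pck1, the other control point of the pathway, was at 2912 ± 668 and 2561 ± 246 CPM (adjusted p = 0.456, edgeR). Of 22 amino acid transporters, 4 were lower (18.2%, against 6.21% of all genes) and none higher by edgeR, DESeq2, or limma. Still, 11 of the 22 differences were above 0 (median 0.013). At an unadjusted p under 0.05, 2 were higher, and 2 were lower with the library batch. Slc6a19, the main carrier of neutral amino acids in the brush border, was at 233, 302, 302, 306 and 254 CPM at ZT20 and at 399, 439, 591, 451 and 493 CPM at ZT8 (1.70-fold lower, -0.77 ± 0.11, adjusted p = 1.15e-06, edgeR). Slc6a20a, a proline carrier with a near copy, Slc6a20b, that can share its reads, differed by -0.58 ± 0.11. Of 28 organic ion and drug transporters, 1 was higher and 2 lower, shares of 3.57% and 7.14% against 8.16% and 6.21% of all genes. Slc22a4, a carrier of ergothioneine, was 1 of the lower ones (-0.42 ± 0.082).

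Lists of NAD, glucocorticoid, and autophagy genes held calls in both directions. In the NAD list 3 of 19 were higher, Nt5e among them, and 4 lower (15.8% and 21.1%, against 8.16% and 6.21% of all genes). The counts were 2 of each without replicates 1 and 2 at ZT20, and 3 and 0 without RUVs factors or with the library batch. Acmsd, which diverts the tryptophan pathway away from NAD, rose from 137 ± 18.3 to 201 ± 45.8 CPM (0.53 ± 0.15), a call that was lost without replicate 3 at ZT20 (0.36, adjusted p = 0.0975, edgeR). Nampt, the rate-limiting enzyme of NAD salvage, was at 248 ± 37.8 and 251 ± 6.35 CPM and did not pass the test (adjusted p = 0.42, edgeR). In the glucocorticoid list 7 of 24 were higher and 2 lower (29.2% and 8.33%, against 8.16% and 6.21% of all genes), with a median of 0.17. The higher count was 2 without replicates 1 and 2 at ZT20, 3 with the library batch, and 4 without RUVs factors or without replicate 5 at ZT8. The members that rose include Cdkn1a, Zbtb16, and Sgk1, and those that fell include Per1. Of 43 autophagy and lysosome genes, 3 were higher and 7 lower (6.98% and 16.3%, against 8.16% and 6.21% of all genes). Of the 43 differences, 22 were above 0 (median 0.013). The counts of higher and lower calls were 0 and 7 without replicates 1 and 2 at ZT20. They were 0 and 3 with the library batch, while DESeq2 called 11 lower. Wipi1, a protein of the forming autophagosome, was at 28.2, 31.8, 36.0, 37.5 and 35.5 CPM at ZT20 and at 45.8, 46.8, 57.7, 57.7 and 58.2 CPM at ZT8, without overlap (-0.62 ± 0.084, adjusted p = 2.46e-07, edgeR). Gabarapl1 and Map1lc3b, which coat the same membrane, differed by -0.29 ± 0.067 and -0.24 ± 0.053.

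Of 39 genes of cytochrome P450 and conjugation, 1 was higher and 3 lower (2.56% and 7.69%, against 8.16% and 6.21% of all genes), among them Cyp24a1 and the epoxide hydrolase Ephx1 (-0.47 ± 0.079). Of 25 cell cycle genes, 2 were higher, Cdkn1a among them, and 3 were lower. These shares of 8% and 12% stood against 8.16% and 6.21% of all genes. Wee1, a kinase that holds back mitosis, fell from 30.7 ± 2.88 to 21.0 ± 4.51 CPM (-0.60 ± 0.12, adjusted p = 0.00045, edgeR), and Plk2, a kinase of the stress response, fell as well (-0.42 ± 0.094). Of 20 renin-angiotensin and blood pressure genes, 2 were lower (10%, against 6.21% of all genes). None was higher by edgeR, DESeq2, or limma, and 1 was lower with the library batch. Ednrb, an endothelin receptor, fell from 30.4 ± 4.94 to 19.9 ± 3.91 CPM (-0.60 ± 0.11, adjusted p = 0.000117, edgeR), and Ren1, renin, was at 81.7 ± 18.6 and 72.2 ± 13.8 CPM (adjusted p = 0.25, edgeR). In the matrix and injury list 3 of 23 were higher and 1 lower (13% and 4.35%, against 8.16% and 6.21% of all genes). Without replicates 1 and 2 at ZT20, 1 was higher. Fga, a fibrinogen chain, rose (0.95 ± 0.25), a call that was lost without replicates 1 and 2 at ZT20 (adjusted p = 0.0639, edgeR), and Adamts1, a matrix protease, rose (0.64 ± 0.16), a call that was lost with the library batch in place of RUVs factors (adjusted p = 0.0596, edgeR). Of 26 antigen presentation and interferon genes, 2 were lower and none higher by edgeR, DESeq2, or limma (median -0.20), a share of 7.69% against 6.21% of all genes, and 0 were lower by edgeR with the library batch.

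Few cell type markers were called. Of the 17 marker lists, 12 held no called gene, and the others held 1 or 2. The called ones include Gatm of the proximal tubule (0.34 ± 0.086), Cldn10 of the thick ascending limb (0.35 ± 0.072), and Avpr2 of the collecting duct. Thick ascending limb markers summed to 3762 CPM in replicate 2 at ZT20, against 5499 to 7310.5 CPM in the other night mice and 5893 to 6477 CPM at midday. Fibroblast and mural cell markers summed to 84.5 CPM in the same mouse, against 188 to 239 CPM in the other night mice and 203 to 322 CPM at midday. All 8 of these markers had a negative difference (median -0.25), 1 of them called, and none was called without replicates 1 and 2 at ZT20. Adipocyte markers ranged from 3.45 to 22.0 CPM in sum at ZT20 and from 0.214 to 13.1 CPM at ZT8, and all 6 markers had a positive difference (median 1.02, and 1.32 without replicates 1 and 2 at ZT20), with none called by edgeR, DESeq2, or limma and none at an unadjusted p under 0.05. Neutrophil, B cell, T cell, and adrenal cortex markers were at sums under 14 CPM in every mouse, with Ly6g, Cyp11b1, and Cyp11b2 at 0. The 5 tested T and NK cell markers had a median difference of -0.26. The part of these shares of tissue in the differences above was not tested.

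The same 2 times were sampled in cKOt mice, and an interaction term asked which differences depended on the genotype. In cKOt mice 2267 genes differed between ZT20 and ZT8 (14.6%). The term was called for 275 genes (1.77% of all tested), 194 of them among the 2235 called in controls, 140 that rose and 54 that fell. The count of terms was 125 without RUVs factors and 110 with the library batch in their place. The deletion removes part of Arntl, and counts per gene also read its remaining exons and other cells. Arntl was at 23.5 ± 1.42 CPM at ZT20 and 18.5 ± 1.96 CPM at ZT8 in cKOt mice, and the test found no call there (log2 difference 0.32 ± 0.20, adjusted p = 0.307, edgeR). The difference between genotypes was 3.74 ± 0.32 (adjusted p = 3.07e-12, edgeR).

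Npas2, Nfil3, Slc16a1, Ypel2, Dtx4, Ndrg1, Leo1, Itga6, and Avpr1a, all called in controls, were not called in cKOt mice, and the interaction term was called for each of the 9. For Npas2 the log2 differences were 3.94 ± 0.31 in controls and -0.052 ± 0.19 in cKOt mice, whose level was at 47.0 ± 2.74 CPM at ZT20 and 51.0 ± 7.63 CPM at ZT8 (interaction 3.99 ± 0.38, adjusted p = 3.4e-11, edgeR). For Slc16a1 they were 1.90 ± 0.16 and -0.35 ± 0.15 (interaction 2.24 ± 0.22, adjusted p = 1.46e-10, edgeR). For Ndrg1 they were 1.33 ± 0.15 and -0.22 ± 0.14 (interaction 1.55 ± 0.20, adjusted p = 4.13e-07, edgeR). Dbp, Ciart, Per3, Tef, Nr1d2, and Cry1 were called in both genotypes with the smaller difference in cKOt mice. For Dbp it was -2.44 ± 0.23 against -4.83 ± 0.23 (interaction -2.39 ± 0.34, adjusted p = 4.13e-06, edgeR). Acsl1 and Acot1 had opposite signs, with -0.44 ± 0.093 and -0.62 ± 0.21 in cKOt mice (interaction 1.15 ± 0.13 and 1.50 ± 0.29, adjusted p = 1.48e-08 and 0.000937, edgeR). Among transport genes the term was called for Atp1b1 (-0.32 ± 0.069), Slc9a3 (-0.38 ± 0.10), and Usp2 (-0.55 ± 0.14), whose differences in cKOt mice were 0.02 ± 0.049, -0.016 ± 0.074, and 0.085 ± 0.097.

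For other genes the term was not called, which does not show that the genotypes were alike, and the estimates are given with their SE. Nr1d1 differed by -3.12 ± 0.27 in cKOt mice (interaction -0.34 ± 0.38, adjusted p = 0.78, edgeR), although its level at ZT8 was 23.4 ± 5.43 CPM there against 50.1 ± 8.84 CPM in controls. Cyp24a1 (-2.06 ± 0.48 in cKOt mice), Slc6a19 (-0.85 ± 0.11), Slc2a5 (-0.75 ± 0.16), Igfbp1 (-1.28 ± 0.36), Msmo1 (0.70 ± 0.13), Scd2 (0.75 ± 0.094), Sdf2l1 (1.64 ± 0.23), Hsp90aa1 (0.85 ± 0.12), and Wipi1 (-0.70 ± 0.083) had a called difference of the same sign. Their interaction terms were 0.32 ± 0.66, 0.079 ± 0.16, -0.14 ± 0.23, -0.64 ± 0.51, 0.13 ± 0.19, -0.095 ± 0.13, -0.70 ± 0.32, -0.34 ± 0.17, and 0.079 ± 0.12 in the same order. Of the 2235 genes called in controls, 873 were called in cKOt mice, 851 of them in the same direction. Replicates 2 and 4 of cKOt mice at ZT8 had mean correlations of 0.975 and 0.974 with the other mice of their group, the lowest of the 4 groups in this comparison.

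**Figure D5:**
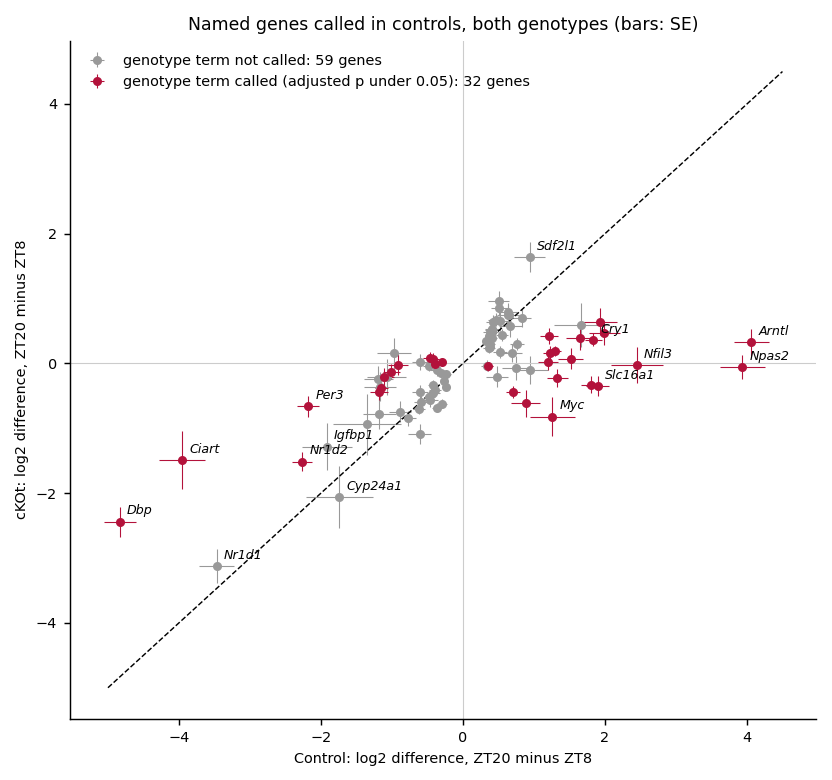
Log2 difference between ZT20 and ZT8 in cKOt mice (y axis) against that in control mice (x axis) for the named genes that were called in controls, with SE bars and a dashed line of equal differences. The 32 genes in red, with a called genotype term, include Arntl, Npas2, Nfil3, and Slc16a1 near 0 in cKOt mice, whereas Nr1d1 and Cyp24a1, among the 59 in grey, lie near the line.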

How the data were processed

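Kidney RNA was sequenced as stranded poly(A) libraries with single reads. Per the labels and methods, the authors trimmed reads with cutadapt (1.8), aligned them with STAR (2.5.3a) to GRCm38, and deposited counts per gene from HTSeq (0.9.1), and the submitters' processing notes also name bcl2fastq. The annotation release is not given in the sources used here. Rows that name no gene were left out. They held 7.17% to 10.6% (no feature) and 0.953% to 1.27% (ambiguous) of reads per sample. Antisense genes were counted by strand, and reads that near-identical paralogues share can be misassigned.

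The 15546 of 55335 genes that reached 1 CPM in any of the 60 samples were fitted with edgeR (4.0.16, R 4.3.3), TMM factors, 12 groups, and 2 RUVs factors of unwanted variation estimated from replicates. All 60 samples shared the dispersion, and the contrast of control ZT20 and ZT8 was tested by the quasi-likelihood test with Benjamini-Hochberg adjustment at 0.05. The genotype term is the difference of this contrast between control and cKOt mice. CPM values are TMM-normalized and not corrected for RUVs factors, log2 differences come from the fit, and an error after a log2 value is the SE and after a mean the SD. The study itself used limma, which was an alternative here (3.58.1), as were DESeq2 (1.42.0), other filters, no RUVs factors, the library batch, a replicate block, the compared mice alone, and each mouse left out in turn. Leaving out replicates 1 and 2 at ZT20 together was added after the data were seen. The fit was tested on simulated counts that held no unwanted variation, so the RUVs step itself was not tested. It recovered 72 of 100 genes changed 1.5-fold and 92 of 100 changed 2-fold, and it called 8 unchanged genes.

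The comparison, the named genes, and the lists were chosen with earlier results of these data known. Named were the 15 largest rises and falls among called genes whose mean reached 5 CPM and whose groups did not overlap. The clock lists, up to 3 rises and falls per other list, and a list's best known gene were also named. So were the 5 called genes with a mean of at least 5 CPM that had the largest genotype terms. A few of these genes are not reported here. Of the list members, those whose call was lost when 1 mouse was left out were counted but mostly not described, and proteasome, solute carrier, synthetase, and TCP1 ring families were added, both after values were seen. Mice are separate animals. The p-values of the main fit measure the spread between mice that is left after the 2 RUVs factors, with dispersion shared by all 60 samples.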

Additional observations from a re-analysis of the deposited data

Results flagged for a closer look

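In 7 of the 206 groups of 5 mice looked at (103 genes at ZT20 and at ZT8), 1 mouse lay far from the other 4, where chance alone marks about 1 group in 20. Irs2 was at 34.4 CPM in replicate 3 at ZT20 (others 9.91 to 11.9) and at 86.0 CPM in replicate 3 at ZT8 (others 12.9 to 33.9). Per1 was at 47.2 CPM in replicate 3 at ZT8 (others 25.9 to 30.9), and Arntl at 4.17 CPM in replicate 1 at ZT8 (others 2.12 to 2.59). Atp1b1 was at 2590 CPM in replicate 1 at ZT20 (others 2083 to 2218), Acss2 at 329.5 CPM in replicate 5 at ZT20 (others 306.8 to 312.7), and Fos at 5.04 CPM in replicate 2 at ZT20 (others 11.1 to 11.9).

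The interaction term was called for 194 of all 2235 genes called in controls. Named genes were chosen in part for large differences or large genotype terms, so their share does not stand for all genes. For 32 of the 91 named genes that were called in controls, the log2 difference between ZT20 and ZT8 differed between control and cKOt mice by the interaction test. The size of this difference, control minus cKOt, was positive for Npas2 (3.99), Arntl (3.74), Nfil3 (2.47), Slc16a1 (2.24), Ypel2 (2.14), Myc (2.08), Ndrg1 (1.55), Ppard (1.52), Acot1 (1.50), Cry1 (1.47), Dtx4 (1.44), Cdkn1a (1.28), Lonrf3 (1.26), Avpr1a (1.18), Acsl1 (1.15), Leo1 (1.11), Itga6 (1.06), Nt5e (0.79), and Cldn10 (0.40). It was negative for Ciart (-2.46), Dbp (-2.39), Per3 (-1.51), Cpeb3 (-0.91), Mcm10 (-0.90), Nat8f4 (-0.88), Tef (-0.77), Nr1d2 (-0.75), Upp2 (-0.74), Usp2 (-0.55), Fabp3 (-0.49), Slc9a3 (-0.38), and Atp1b1 (-0.32). Myc, Acot1, and Acsl1 had a negative difference in cKOt mice, which passed the test there for Acot1 and Acsl1 and not for Myc.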

How the results depend on the processing

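The number of called genes varied with the covariates, the mice fitted, and the threshold. The 2235 genes of the fit with RUVs factors were 1433 without these factors (832 higher, 601 lower), 1258 with the library batch in their place (755 and 503), 863 when only the compared mice were fitted (466 and 397), 1424 without replicates 1 and 2 at ZT20 (754 higher), and 1098 at an adjusted p under 0.01 (657 and 441). The fit of the compared mice alone gave 90 genes at least 2-fold apart, 42 of them higher, and 96 genotype terms, against 125 without RUVs factors and 110 with the batch. DESeq2 gave 2250 genes, limma 2267, DESeq2 size factors 2161, no filter on low counts 1741, and filterByExpr 2199. With 1 mouse left out, the counts ranged from 1742 to 2212 in all, 1015 to 1248 higher, 727 to 964 lower, 126 to 158 at least 2-fold apart (61 to 74 higher, 60 to 84 lower), and 207 to 389 genotype terms.

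Same-numbered mice were compared by the correlation of their deviations from the group means. It ran from -0.142 to 0.204, and 2 of 5 matched best with their own number. Low correlations of expression cannot exclude that the replicate numbers pair the mice. With the replicate block 2202 genes were called, 2141 of them among the 2235.

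Of the 91 called named genes, 79 kept call and direction in every fit and none reversed. A call was lost for 4 when 1 mouse was left out and for 11 under another alternative. Named genes were chosen in part for large differences and for calls that held without 1 mouse, so these counts follow from the choice. Over all 2235 called genes, 1162 (52.0%) kept their call when each mouse was left out in turn. The log2 difference changed sign for genes near 0 that did not pass the test. Rora was at -0.0052 with DESeq2 size factors, -0.0037 with DESeq2, and -0.050 to 0.048 without 1 mouse. Per2 was at -0.023 with limma, -0.022 with the batch, -0.056 without replicates 1 and 2 at ZT20, and -0.11 to 0.19 without 1 mouse. Bhlhe40 was at -0.032 without RUVs factors, -0.090 with the batch, -0.045 with the compared mice alone, -0.081 without replicates 1 and 2 at ZT20, and -0.029 to 0.18 without 1 mouse. Nampt was at 0.0035 with the batch. Of 2120 counts of list members over all fits, 293 moved by over 1.5 times. The cause of these changes was not tested. With 5 mice a group and 17.3 to 19.6 reads behind 1 CPM, differences in genes of low level are the least precise.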

Other observations

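Some gene families were left aside above. Of 77 mitochondrial ribosomal proteins, 7 were higher at ZT20 and none lower by edgeR, DESeq2, or limma, with 59 of 77 differences above 0 (median log2 difference 0.07), a share of 9.09% that is near the 8.16% of all genes. The count was 1 without replicate 2 at ZT20, alone or with replicate 1, and 3 without RUVs factors. Of 34 aminoacyl-tRNA synthetases, which load amino acids onto their tRNAs, 6 were higher and 1 lower (17.6% and 2.94%, against 8.16% and 6.21% of all genes). Their median was 0.062. The counts were 3 and 1 without replicates 1 and 2 at ZT20. Of 8 genes of the TCP1 ring, which folds actin and tubulin, all had a positive difference (median 0.14). Of these, 2 were called higher (25%, against 8.16% of all genes), and 1 without the same pair of mice. These families were chosen with the results known.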
